A study of Drosophila melanogaster with 4 samples.

Results

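The library of w1118 wing imaginal discs was compared with that of discs carrying the sd::Gal4 driver alone (sd::Gal4/+), across all genes of the annotation. These were 2 of the 4 libraries of the experiment, and both serve as controls in it. The w1118 line lacks a functional white gene and carries neither driver nor transgene. The sd::Gal4/+ larvae came from sd::Gal4 females crossed with w1118 males, so they hold 1 copy of the driver and 1 set of w1118 chromosomes. Before sequencing, the driver line had been backcrossed repeatedly to the isogenic w1118 line. Discs were dissected from female larvae of the third instar reared at 25°C, and 300 discs in 6 batches of 50 were pooled for each genotype. The other libraries, titled FH-cortoCD and RpL12-Myc, carry the same driver with a UAS transgene. Their genotype labels name the transgenes the other way round from their titles. The titles were kept, since the counts that the study tabulates for FH-cortoCD are those of the library with that title, and both are used below only as further libraries with sd::Gal4. Each genotype has 1 library and no replicate, so every difference below is one between pools of discs, and driver, white, genetic background and dissection cannot be told apart.

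The Gal4 system places a yeast transcription activator under the control of a fly enhancer. The sd::Gal4 driver reports scalloped (sd), which encodes the TEAD-family DNA-binding partner of Vestigial (Vg) in the wing and of Yorkie in growth control. P-element insertions of this kind are usually marked by a mini-white gene, which restores eye colour in a white mutant. The wing disc itself is an epithelial sac with a pouch, a hinge and a notum, to which muscle precursors and tracheal branches are attached. It lies in the haemolymph close to the fat body, the organ that makes the larval serum proteins.

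The deposited counts, summed over both reads of a pair, amounted to 26833482 for w1118 and 35219666 for sd::Gal4/+. After TMM normalisation the w1118 library was 0.788 times as large as that of sd::Gal4/+, the library titled FH-cortoCD 1.19 times and the one titled RpL12-Myc 1.24 times. Read counts below are given unscaled, and log2 fold changes are w1118 over sd::Gal4/+ after normalisation. A gene was represented by its most abundant annotation entry and called when the adjusted P-value of edgeR's binomial test was below 0.05 and the absolute log2 fold change above 1. The intervals are exact binomial 95% intervals on fragments, and cover counting error only. This test compares 2 libraries, not 2 genotypes. It was run on counts summed over both reads, so a fragment could enter the count of an entry up to 2 times. Its P-values are therefore too small, and the calls too many, for counts of independent fragments.

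Of 11168 genes with at least 1 read in either library, 322 (2.88%) were called, 76 (0.681%) higher and 246 (2.2%) lower in w1118. Most called genes had few reads, with a median of 43 in the library where they were higher. Of the called genes, 83 reached 100 reads, 71 of them lower and 12 higher in w1118. Among the 7522 genes with at least 100 reads over both libraries, 96.0% lay within 0.5 of zero on the log2 scale, 101 lay beyond 1, and the standard deviation across genes was 0.42. The median log2 fold change of the 8670 genes with at least 20 reads was -0.02. A larger number, 1990 genes, passed the P-value alone, most of them with folds too small to be called. When each fragment was counted once, by the first reads alone, 31 genes were called higher and 137 lower.

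**Figure D1:**
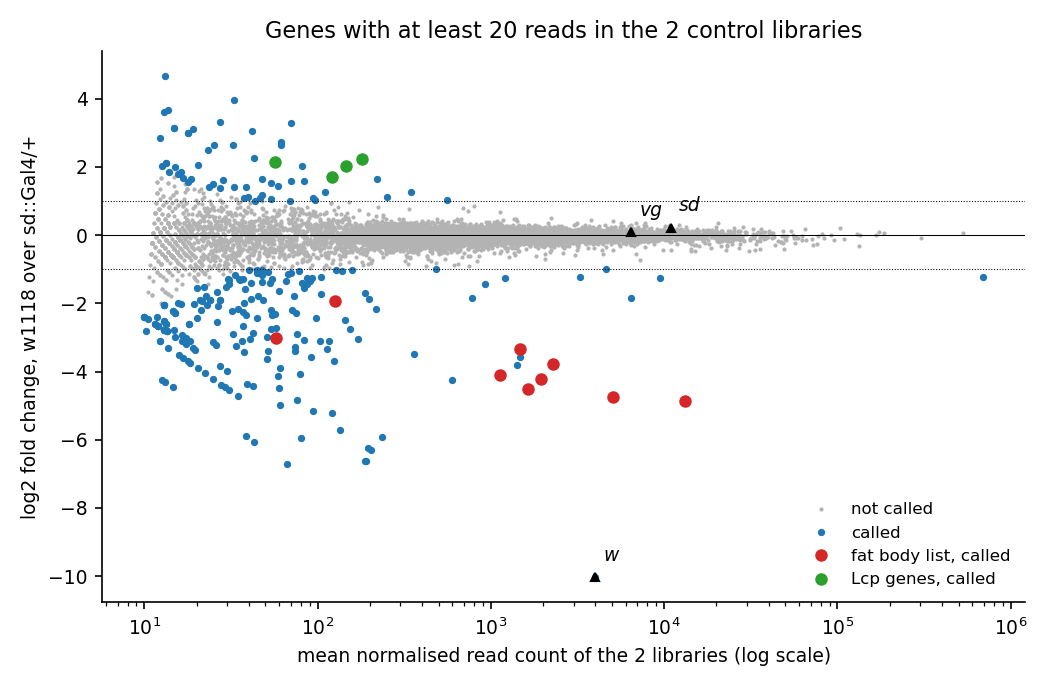
Log2 fold change of w1118 over sd::Gal4/+ (vertical axis) against the mean normalised read count of both libraries (log scale), 1 point per gene with at least 20 reads. Grey genes were not called, blue genes were called, red points are called genes of the fat body list and green points the Lcp cuticle genes. White (w) lies at -10.03, while sd and vg lie at 0.21 and 0.08.

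White, the ABC transporter subunit that carries eye pigment precursors, showed the lowest value of the comparison. Its single entry of 2352 bases, between 2684632 and 2690499 on the X chromosome of dm3, had 6 reads in w1118 and 7981 in sd::Gal4/+. The libraries titled FH-cortoCD and RpL12-Myc had 18794 and 24501 reads. All the libraries that carry the driver were thus high and w1118 alone was near zero. The log2 fold change was -10.03 (interval -12.31 to -8.49), a 1048-fold difference in normalised counts. In w1118 the reads left 2198 of the 2352 bases uncovered by first reads and 2252 by second reads, against 0 in sd::Gal4/+ for each. After normalisation the white level was 1.98 times that of sd::Gal4/+ in the library titled FH-cortoCD and 2.48 times in the one titled RpL12-Myc. The files do not separate reads of the endogenous gene from those of a mini-white marker. Of the 10 genes of eye pigmentation with at least 20 reads, white alone was called, where 2.3% of all genes with as many reads were called lower. Of the 10, 8 lay within 0.5 of zero, and the median was -0.03. Brown (bw), a partner of White in pigment transport, had 198 and 345 reads in w1118 and sd::Gal4/+ (log2 fold change -0.46), and clot (cl), of pigment synthesis, 1381 and 2154 (-0.30).

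The gene whose expression the driver reports was close between the libraries. The main entry of sd, 2298 bases of exon between 15713629 and 15719755 on X in dm3 shared by 16 transcripts, had 9184 reads in w1118 and 10094 in sd::Gal4/+. The libraries titled FH-cortoCD and RpL12-Myc had 10115 and 9896. The log2 fold change was 0.21 (interval 0.15 to 0.27), or 1.15-fold higher in w1118, with an adjusted P of 2.31e-21 in edgeR's binomial test and a fold below the limit of a call. Of the 18 entries of sd, the 16 with at least 50 reads over both libraries ranged from -0.20 to 0.93 and none was called. The highest, a 116-base exon stretch at the start of the gene's span in the files, between 15698405 and 15698520, had 72 reads in w1118 and 48 in sd::Gal4/+ (interval 0.14 to 1.74). The neighbouring stretch between 15699540 and 15700354 had 1304 and 1281 reads (log2 fold change 0.37), so the entries at this side of the gene lay above the main entry. Vestigial (vg), the wing selector gene that acts with sd, had 5243 reads in w1118, 6294 in sd::Gal4/+, 4900 in the library titled FH-cortoCD and 5013 in that titled RpL12-Myc. Its log2 fold change was 0.08 (interval 0.01 to 0.16).

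The wing disc list held 27 genes, all with at least 20 reads, and none was called, where 2.88% of all genes were. Of these, 26 lay within 0.5 of zero, as 96.0% of all genes with at least 100 reads did, and the median was 0.01 against -0.02 over all genes. With that share, no call in a list of this size says nothing particular to these genes. The exception was taxi (tx), with 11 and 27 reads (log2 fold change -0.95, interval -2.70 to 0.57). Nubbin (nub), a POU-domain regulator of the pouch, had 4521 reads in w1118 and 5840 in sd::Gal4/+ (-0.03), apterous (ap), the dorsal selector, 6168 and 7115 (0.14), and engrailed (en), the posterior selector, 2104 and 2214 (0.27). The secreted signals followed the same range. Wingless (wg) had 2757 and 3311 reads (0.08), decapentaplegic (dpp) 2158 and 3013 (-0.14) and hedgehog (hh) 2157 and 2521 (0.12). All 32 genes of the Notch, Wingless, Dpp, Hedgehog and EGFR pathways lay within 0.5 of zero, from -0.46 for rhomboid (rho), the protease that releases EGFR ligands (252 and 440 reads), to 0.34 for Wnt6 (598 and 600 reads). The medians of the pouch and hinge list, of the notum list and of the sensory organ list were 0.00, 0.01 and 0.02, with 16, 13 and 15 genes measured and none called.

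Genes of growth and of chromatin gave like values. All 27 measured genes of the growth list and all 29 Polycomb and trithorax genes lay within 0.5 of zero, with medians of 0.07 and 0.02, and none was called. Over all genes 2.88% were called, and 96.0% of those with at least 100 reads lay within 0.5. With those shares, the lack of calls in the lists of this paragraph says nothing particular to their genes. Of the 22 genes of the ecdysone response, which times the end of larval life, 21 lay within 0.5 and none was called. Broad (br), an ecdysone-induced transcription factor, had 32955 and 38760 reads (0.11), Hr3 1274 and 2122 (-0.39) and Eip74EF 2293 and 3474 (-0.26). None of the 18 heat shock genes was called. Their median was -0.21, against -0.02 over all genes with at least 20 reads. Of the 18, 15 lay below zero and 3 above, 17 lay within 0.5, and the lowest was at -0.89. The Hsp70 copies, which are nearly identical so that reads matching more than once were removed, lay between -0.35 and -0.18.

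**Figure D2:**
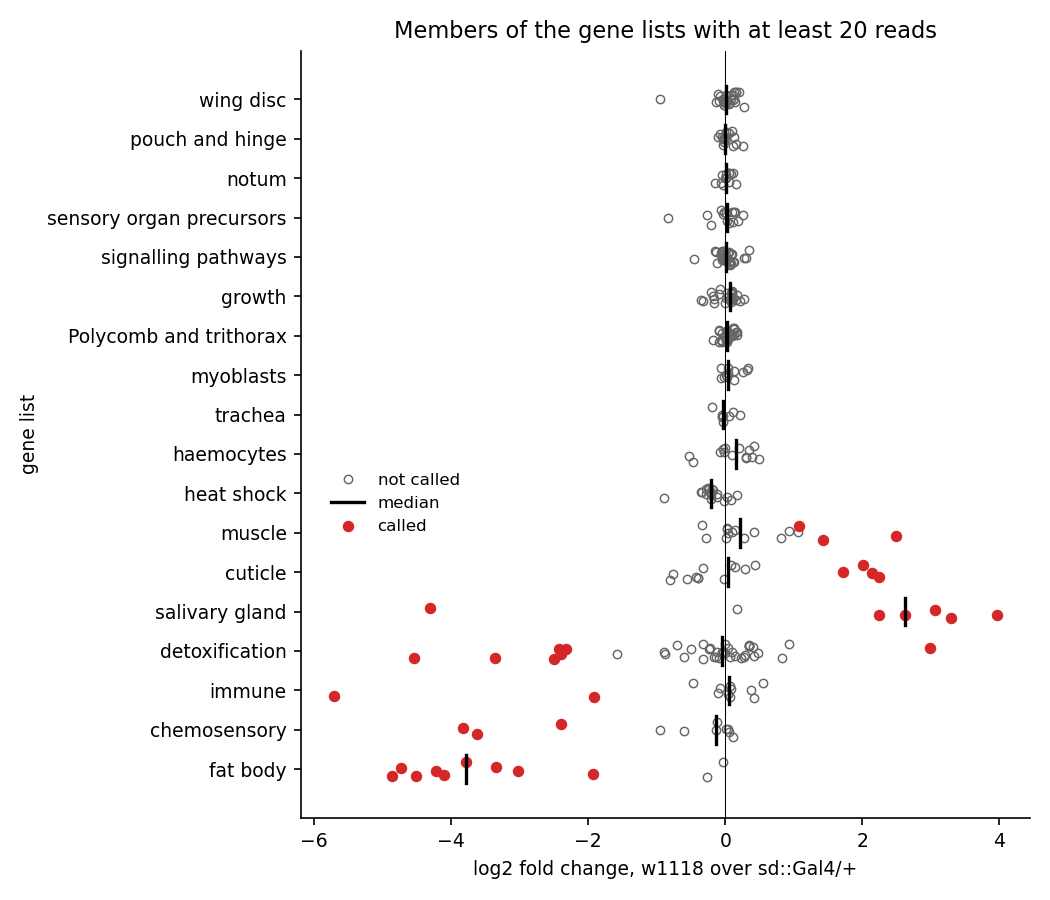
Log2 fold change of w1118 over sd::Gal4/+ (horizontal axis) for the members of 18 gene lists (vertical axis) with at least 20 reads. Open circles are genes not called, red circles called genes, and vertical bars the median of each list; points are spread vertically within a list for legibility. The lists of disc patterning, signalling, growth and chromatin stay near zero, as most genes do (96.0% of those with at least 100 reads lie within 0.5). In contrast, 9 of 11 fat body genes lie between -4.86 and -1.94.

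Among the lists, that of the fat body held the most called genes with at least 100 reads in the higher control, 9 of the 83. Over all genes with at least 20 reads, 0.692% were called higher and 2.3% lower in w1118, and the counts of the lists below stand beside these shares. Of 14 listed fat body genes found in the files, 9 were called lower in w1118 and none higher, and the 11 with at least 20 reads had a median of -3.77. Fbp1, a fat body receptor for larval serum proteins, had 697 reads in w1118, 25614 in sd::Gal4/+, 8274 in the library titled FH-cortoCD and 16096 in that titled RpL12-Myc. The log2 fold change was -4.86 (interval -5.01 to -4.70). Lsp2, a hexameric storage protein of the haemolymph, had 289, 9781, 6224 and 10656 reads in the same order (log2 fold change -4.74). In both genes w1118 was low and the 3 libraries with the driver were high.

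The subunits of the other larval storage protein behaved alike. In the order w1118, sd::Gal4/+, FH-cortoCD and RpL12-Myc, Lsp1alpha had 155, 3671, 3269 and 3728 reads (log2 fold change -4.22), Lsp1beta 244, 4238, 6110 and 6665 (-3.77) and Lsp1gamma 208, 2689, 3288 and 3178 (-3.35). These 3 genes lie on different chromosome arms. Fbp2, a fat body protein related to alcohol dehydrogenase, had 108, 3125, 817 and 1368 reads (-4.51), and apolpp, the apolipoprotein of lipophorin, 98, 2127, 676 and 998 (-4.10). For both, sd::Gal4/+ was the highest of the 4 libraries and w1118 the lowest. Adh, the alcohol dehydrogenase, had 10, 103, 75 and 55 reads (-3.02), and the lipid droplet protein gene Lsd-1 had 41, 199, 76 and 107 (-1.94). The fatty acid synthase gene FASN1 (1286 and 1958 reads, -0.26) and fat-spondin (222 and 289 reads, -0.04) were not called. The yolk protein genes of the list, which the adult female fat body expresses, had at most 10 reads in either control.

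Summed over the list, normalised counts were 4267 in w1118, 53804 in sd::Gal4/+, 27288 in the library titled FH-cortoCD and 38341 in that titled RpL12-Myc. All annotation entries of these genes took 0.0155% of the counts of w1118 and 0.227% of those of sd::Gal4/+. In bulk RNA, fewer cells of a type and less RNA per cell cannot be told apart. Genes outside the list were also low in w1118 and higher in the 3 other libraries. Obp99b, an odorant-binding protein gene, had 147 reads in w1118, 2638 in sd::Gal4/+, 2966 in FH-cortoCD and 4538 in RpL12-Myc (log2 fold change -3.82), and Obp99c had 6, 94, 69 and 72 (-3.63). TotA, a secreted stress protein of the Turandot family, had 4, 264, 117 and 178 reads (-5.70). The part of fat body RNA in the values of these genes was not tested.

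A further set of genes was high in sd::Gal4/+ alone. Alp7 and Alp8, alkaline phosphatase genes on 2R, had 6 and 4 reads in w1118, 462 and 399 in sd::Gal4/+, 16 and 11 in FH-cortoCD, and 4 and 10 in RpL12-Myc. Their log2 fold changes were -5.92 and -6.30. Muc11A, a mucin gene on X, had no read in w1118, 378 in sd::Gal4/+, 144 in FH-cortoCD and 2 in RpL12-Myc, at least 99.3-fold lower in w1118 when 3 reads are taken as the floor of the library. Mur18B, a mucin-related gene on X, had 182 reads in sd::Gal4/+ and 4 in each of the others (-5.16). Fst, a gene known to respond to cold, had no read in w1118, 374 in sd::Gal4/+, 12 in FH-cortoCD and 11 in RpL12-Myc, at least 98.2-fold lower in w1118. These genes were therefore lower in w1118 than in sd::Gal4/+ but also low in the other 2 libraries that carry the driver, apart from Muc11A, which had reads in that titled FH-cortoCD.

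The remaining genes with the lowest values were of the same kind. CG16727 had 4 reads in w1118, 386 in sd::Gal4/+, 15 in FH-cortoCD and none in RpL12-Myc (log2 fold change -6.25). CG17752 had 2, 157, 2 and no reads (-5.95), and CG11892 had 5, 235, 18 and 4 (-5.21). CG10514 had 1, 132, 11 and no reads (-6.70, interval -16.71 to -3.43). The gene kumpel had 121 reads in sd::Gal4/+ and none in the other 3 libraries, at least 31.8-fold lower in w1118. CG16727, CG17752, CG11892, CG10514 and kumpel all lie on 3R, on which 92 of 2674 genes were called (3.44%), against 2.88% over the genome. CG17752 and CG16727 lie close together there, as do CG10514 and CG11892, so these genes do not all stand for separate places on the arm.

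The position of the libraries with driver and transgene divided the called genes. Of the 246 genes lower in w1118, both of these libraries lay nearer to sd::Gal4/+ than to w1118 on the log2 scale for 92, both nearer to w1118 for 95, and 1 on each side for 59. Of the 76 genes higher in w1118, the numbers were 20, 37 and 19. Among the 148 called genes with at least 50 reads in the higher control, 56 were more than 2-fold lower in w1118 than in each of the 3 other libraries, white and 8 of the 9 called fat body genes among them (all but Lsd-1). In 9 genes w1118 was more than 2-fold above each of the others. In contrast, 54 genes were more than 2-fold higher in sd::Gal4/+ than in each of the others and 14 more than 2-fold lower, and 11 genes belonged both to the 56 and to the 54. These limits were set with the values known, and the counts are descriptions.

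**Figure D3:**
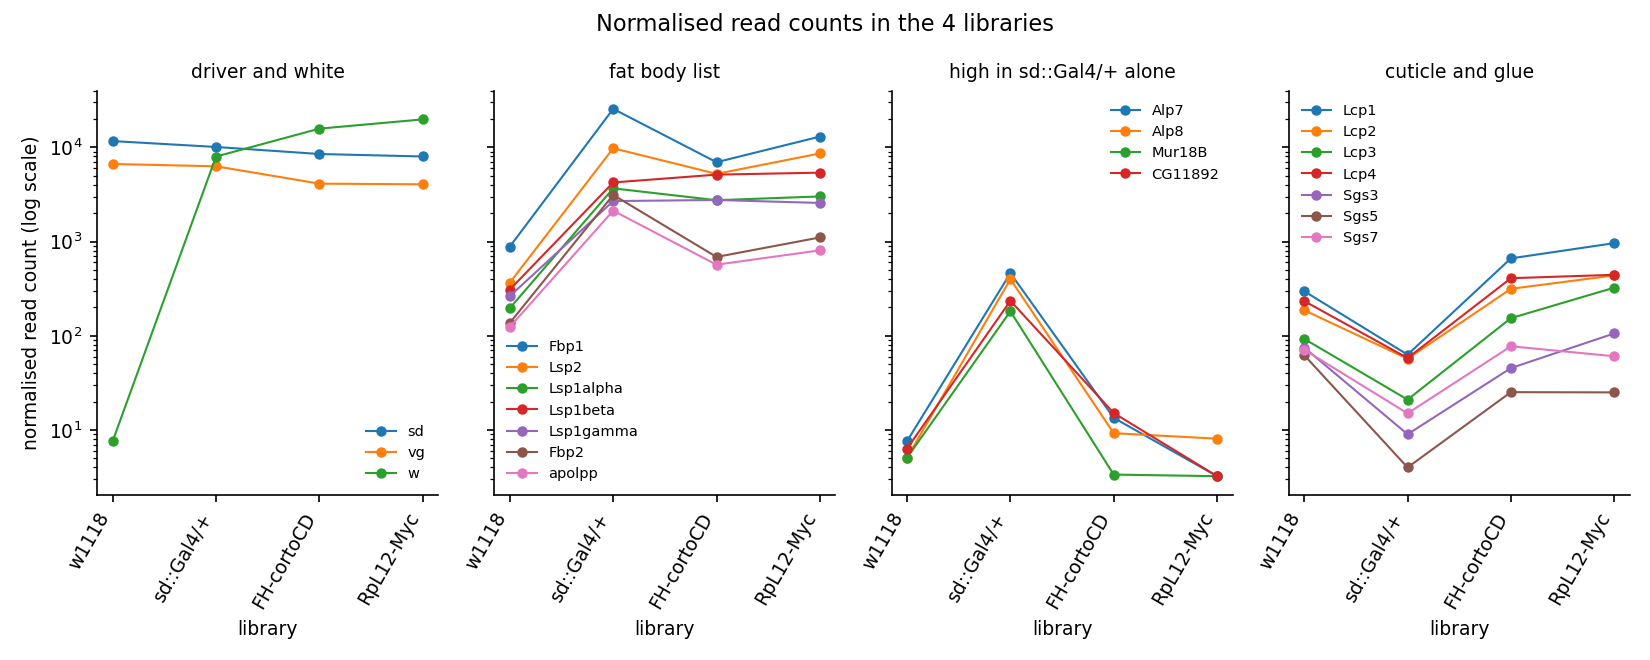
Normalised read counts (log scale, scaled to the size of the sd::Gal4/+ library) in the 4 libraries, 1 line per gene joining the libraries for legibility. White has 6 reads in w1118 and 7981 or more in the libraries with the driver, the fat body genes are lowest in w1118, Alp7, Alp8, Mur18B and CG11892 are high in sd::Gal4/+ alone, and 7 cuticle and glue genes are lowest in sd::Gal4/+.

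Genes higher in w1118 were fewer and changed less. Of the cuticle list, 16 genes had at least 20 reads, 4 were called higher (0.692% over all genes with as many reads) and none lower, and the median was 0.04. The 4 were the larval cuticle protein genes Lcp1 to Lcp4, neighbours on 2R. Lcp1 had 234 reads in w1118, 63 in sd::Gal4/+, 789 in FH-cortoCD and 1190 in RpL12-Myc (log2 fold change 2.24, interval 1.66 to 2.85). Lcp2 had 147, 57, 375 and 541 reads (1.71), Lcp3 73, 21, 183 and 401 (2.14) and Lcp4 184, 58, 486 and 549 (2.01). The order was the same in each, with sd::Gal4/+ lowest and RpL12-Myc highest, so that w1118 was not the library that stood apart. These genes are close paralogues, and reads shared between them may have been dropped. The cuticle genes Cpr49Ac (3433 and 4091 reads, 0.09) and obst-A (5745 and 7382 reads, -0.02) were close between the controls.

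The salivary gland list held 7 genes with at least 20 reads, of which 5 were called higher and 1 lower in w1118, against 0.692% and 2.3% over all genes with as many reads. The glue protein gene Sgs3 had 59 reads in w1118, 9 in sd::Gal4/+, 54 in FH-cortoCD and 131 in RpL12-Myc (log2 fold change 3.06), and Sgs5 had 49, 4, 30 and 31 (3.96). Eig71Ee, an ecdysone-induced gene of the late larva, had 100, 13, 38 and 23 reads (3.29, interval 2.10 to 4.73), the highest value among genes with at least 100 reads in the higher control. Forkhead (fkh), a transcription factor of the gland, had 1 read in w1118, 25 in sd::Gal4/+ and 13 in each of the others (-4.30, interval -14.38 to -0.83). The list summed to 454 normalised counts in w1118 and 135 in sd::Gal4/+, and whether gland RNA entered the pools was not tested.

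Among muscle genes, 3 of the 16 with at least 20 reads were called higher in w1118, against 0.692% over all genes with as many reads, and the median was 0.21. Zasp66, a Z-disc protein gene, had 31 reads in w1118, 7 in sd::Gal4/+, 29 in FH-cortoCD and 23 in RpL12-Myc (log2 fold change 2.49). Bent (bt), which encodes the giant muscle protein projectin, had 68, 32, 151 and 124 reads (1.43), and the troponin C gene TpnC73F 50, 30, 159 and 121 (1.08, interval 0.10 to 2.11). After normalisation sd::Gal4/+ was the lowest library for each of these genes. For bt and TpnC73F, w1118 lay below both libraries with a transgene. Between the controls the myosin heavy chain gene Mhc went the other way, with 68 and 109 reads in w1118 and sd::Gal4/+ (-0.34), and was not called. None of the 12 myoblast genes, the 8 tracheal genes and the 14 haemocyte genes with at least 20 reads was called, with medians of 0.04, -0.03 and 0.15. Over all genes with as many reads, 0.692% were called higher and 2.3% lower, so this lack of calls says nothing particular to them. Of the 8 neuronal and glial genes with at least 20 reads, 1 was called higher and none lower, to be set against the same shares. It was scratch (scrt), a zinc finger gene of neurons, with 34, 14, 25 and 32 reads (1.62, interval 0.28 to 3.14). The other 7 lay within 0.5 of zero, and the median of the list was 0.05. The midgut list, of which 29 genes were found in the files, summed to 64.7 normalised counts in w1118 and 30 in sd::Gal4/+, against 1748 in FH-cortoCD and 11357 in RpL12-Myc, and 15 of the 29 had no read in either control.

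The other genes with the highest values had no list in common. Dscam4, a cell adhesion gene of the immunoglobulin superfamily, had 592 reads in w1118, 368 in sd::Gal4/+, 446 in FH-cortoCD and 220 in RpL12-Myc (log2 fold change 1.03). Mrp5, an ABC transporter gene, had 262, 107, 110 and 60 reads (1.64), CG15546 had 383, 201, 93 and 112 (1.27), and Hez had 102, 64, 76 and 57 (1.02). In these 4 genes w1118 was the highest library after normalisation. Nep7, a gene of the neprilysin peptidase family, had 271, 158, 472 and 683 reads (1.12), CG13731 had 122, 65, 304 and 317 (1.25), and CG42500 had 102, 32, 282 and 304 (2.02). In those, sd::Gal4/+ was the lowest library. Fussel (fuss), a Ski/Sno family gene on chromosome 4, had 101, 60, 136 and 84 reads (1.10).

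Of 41 detoxification genes with at least 20 reads, 6 were called lower and 1 higher in w1118, where 2.3% and 0.692% of all genes with as many reads were, and the median was -0.05. Cyp6g1, a cytochrome P450 known for its part in insecticide resistance, had 34 reads in w1118, 243 in sd::Gal4/+, 66 in FH-cortoCD and 69 in RpL12-Myc (log2 fold change -2.49, interval -3.32 to -1.76). Cyp28d1 had 2, 59, 32 and 81 reads (-4.54). Cyp6a8 had 39 reads in sd::Gal4/+ and none in the other 3 libraries, at least 10.2-fold lower in w1118. Cyp4d20 went the other way, with 25, 4, 28 and 26 reads (2.99). The abundant glutathione transferase genes GstD1 (7794 and 10835 reads, -0.13) and GstS1 (6350 and 8100 reads, -0.01) were close between the controls.

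Of 44 immune genes in the files, 21 had no read in either control. Of the 23 with reads, 3 were called lower and none higher in w1118, where 2.2% and 0.681% of all genes with reads were. Besides TotA these were the antifungal peptide gene drosomycin (Drs), with 9 reads in w1118, 43 in sd::Gal4/+, 13 in FH-cortoCD and 28 in RpL12-Myc (log2 fold change -1.91), and the peptidoglycan recognition gene PGRP-SB1, with 15 reads in sd::Gal4/+ and none elsewhere (at least 3.94-fold lower). Of the chemosensory list, 22 genes had reads and 3 were called lower, to be set against the same 2.2%. Obp83ef, with no read in w1118 and 20 in sd::Gal4/+ (at least 5.25-fold lower), was called beside Obp99b and Obp99c.

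Mitochondrial transcripts were unequal among the libraries. They took 2.29% of the counts of w1118 and 3.93% of those of sd::Gal4/+, but 0.333% in FH-cortoCD and 0.240% in RpL12-Myc. The large ribosomal RNA mt:lrRNA had 328579 reads in w1118, 975604 in sd::Gal4/+, 32368 in FH-cortoCD and 21890 in RpL12-Myc (log2 fold change -1.23). The small ribosomal RNA mt:srRNA had 63, 357, 5 and 6 reads (-2.16), and mt:ND4L, a subunit of respiratory complex I, 180, 2698, 33 and 19 (-3.56). In each the control libraries stood far above the others, and sd::Gal4/+ above w1118. The other 12 protein genes of the mitochondrial list were not called, and ranged from -0.45 for mt:ND6 to 0.68 for mt:ND3. Of all 37 mitochondrial genes, listed or not, 5 were called (13.5%), against 2.88% over the genome. Of these, 4 were lower and 1 higher in w1118. The higher one was mt:tRNA:Ser-TGA, with 57 reads in w1118 and 35 in sd::Gal4/+ (log2 fold change 1.05). The RNA had been selected for poly(A) tails, and the part of that selection in these values was not tested. The nuclear noncoding RNA lncRNA:Hsromega, a heat-inducible transcript, had 2408 reads in w1118, 6149 in sd::Gal4/+, 8313 in FH-cortoCD and 7690 in RpL12-Myc (-1.01). RpL29, a ribosomal protein gene singled out after its values were seen, had 4416, 13437, 68236 and 32177 reads.

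The surroundings of sd on the X chromosome were examined, since the labels give no position for the driver beyond its name and backcrossing tends to leave the chromosome next to an insertion unexchanged. Within 1 Mb on either side of sd, 243 genes had reads and 5 were called (2.06%), all lower in w1118, against 2.88% called over the genome. The median log2 fold change of the 199 with at least 20 reads was -0.04. Within 0.5 Mb 1 of 131 genes was called, within 2 Mb 7 of 367 and within 4 Mb 14 of 708 (1.98%). The shares were thus below the genome's in each of these windows. The share of the whole X chromosome was also below it, at 1.85%, so a low share was not particular to the surroundings of sd. Around white, 3 of 170 genes within 1 Mb were called, white included.

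The 5 called genes near sd had low counts. Fezzik (fiz), an oxidoreductase gene, had 7 reads in w1118, 149 in sd::Gal4/+, 57 in FH-cortoCD and 101 in RpL12-Myc (log2 fold change -4.07, interval -6.15 to -2.57). CG9512, which lies beside it, had 4, 24, 22 and 22 reads (-2.24), and drop dead (drd) had 40, 105, 104 and 130 (-1.05). In these 3 genes the libraries with the driver lay together above w1118. CG9919 had 17, 53, 11 and 25 reads (-1.30), so that sd::Gal4/+ stood alone. Tob had no read in w1118, 12 in sd::Gal4/+ and 2 in each of the others, at least 3.15-fold lower when 3 reads are taken as the floor. The upper end of its interval on fragments was 0.11, so counting error alone does not exclude equal levels. When each fragment was counted once by its first read, fiz alone of the 5 was called.

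**Figure D4:**
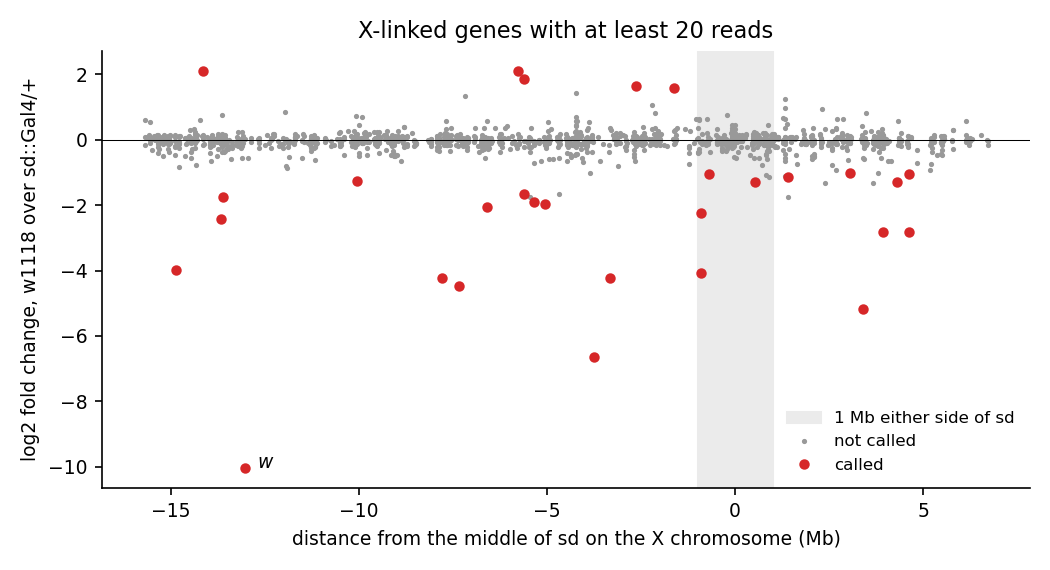
Log2 fold change of w1118 over sd::Gal4/+ (vertical axis) for X-linked genes with at least 20 reads, by their distance in Mb from the middle of sd (horizontal axis), with the shaded band 1 Mb to either side. Red points were called and grey points were not; white lies at -10.03, and the band holds 4 called genes with at least 20 reads.

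Across the chromosome arms the share of genes called was 1.85% on X, 3.25% on 2L, 2.62% on 2R, 2.68% on 3L and 3.44% on 3R. On chromosome 4, 4 of 80 genes were called (5%), 3 higher and 1 lower in w1118. Over the genome 2.88% were called, and 4 genes are too few for a comparison with that share. The medians of the arms lay between -0.03 on X and 0.05 on chromosome 4. The roX1 RNA of dosage compensation (lncRNA:roX1), known as a male transcript, had 814 reads in w1118, 573 in sd::Gal4/+, 428 in FH-cortoCD and 586 in RpL12-Myc (log2 fold change 0.85) and was not called. The other roX RNA, lncRNA:roX2, lay at 1.43 and was not called either. Of the 5 genes of the male list with at least 20 reads, 4 lay above zero and the median was 0.39. Of 8 testis genes listed with roX1 that had fewer than 20 reads, Mst87F had 1 and 2 reads in w1118 and sd::Gal4/+ and the others none.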

How the data were processed

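RNA from 4 pools of wing discs had been sequenced as pairs of 50-base reads. By the methods of the study and the submitters' processing notes, polyadenylated RNA was used, images were processed with CASAVA 1.7, filtered reads were aligned with Bowtie to dm3, reads matching more than once were removed, and overlaps with FlyBase exons were counted without regard to strand, so that a gene and its antisense partner cannot be told apart. The authors deposited whole-number counts for each read of the pairs, without normalization. Beside each count the deposited files hold its fraction of the library total (named a ratio there) and the number of bases of the entry left uncovered. The bases not covered were used for white, and the fraction only in checking the files.

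Counts of both reads were summed, which counts a fragment up to 2 times within an entry. Of 30950 entries, 28795 with 97.8% of the counts were given 1 of 14090 gene names, through the transcripts of the reference annotation (Ensembl, for names only), tables of the study or a shared exon end. Coordinates are those of the files, and no sequence was used here. Libraries were compared by edgeR (version 4.0.16, under R 4.3.3) with its binomial test. TMM sizes were computed on the 4 libraries together, and P-values were adjusted by Benjamini-Hochberg across the entries of the files. No pseudocount was added, and a library with no read was set to 3 reads. Intervals used halved counts. The study's own limit, an adjusted P of 4e-18, had been tuned on this pair of libraries and was used only as an alternative. On simulated counts for 30950 entries, with 200 of them, each with at least 50 reads, changed by 2 on the log2 scale, 199 were recovered and 1 unchanged entry was called. The simulated counts were drawn independently and varied by counting error alone. They held neither paired reads of a fragment nor spread between pools, so they give no error rate for the calls in the real libraries.

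The genes named were sd, vg and w, the 12 highest and 12 lowest called genes with at least 100 reads in the higher library, called genes within 1 Mb of sd, and up to 4 called members of each list with the largest change. The members and lists were chosen with earlier results of these data known. Genes given for contrast were taken from the lists. The alternatives were DESeq2 1.42.0 size factors, library totals, unscaled folds, at least 10 reads in each library, each read alone, the study's P-value limit, a log2 limit of 2, any entry of a gene, and w1118 against the 3 libraries with sd::Gal4.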

Additional observations from a re-analysis of the deposited data

How the results depend on the processing

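The called genes, 76 higher and 246 lower in w1118 (481 entries), depended on depth and limits more than on scaling. The counts were 39, 93 and 201 with at least 10 reads in each library, 31, 137 and 242 with first reads alone, 31, 129 and 234 with second reads alone, 6, 54 and 78 at an adjusted P below 4e-18, and 35, 156 and 271 at a log2 limit of 2. The share called within 1 Mb of sd, 2.06% where 2.88% of all genes were called, was 0.823% with at least 10 reads in each library (1.18% of all genes) and at a log2 limit of 2 (1.71%), 0.412% with first reads (1.50%), second reads (1.43%) and at 4e-18 (0.537%), and 3.29% when any entry of a gene sufficed (3.31%). Against the 3 libraries with sd::Gal4, edgeR's quasi-likelihood test, in which the spread came from those libraries and w1118 was assumed to vary like them, called 0 genes, 0 entries and 0% near sd. There 400 of 21014 entries tested had an unadjusted p below 0.05, the smallest adjusted p was 0.283 and that of white was 0.503. The 3 libraries with sd::Gal4 are of different genotypes, so the spread in that quasi-likelihood test includes any effect of the transgenes. It is not the spread of replicates, and the lack of calls there cannot be read as ordinary variation between pools. Under the binomial test fewer reads or a stricter limit account for the other losses by construction. Unscaled folds moved the median of all genes to -0.36 and turned sd to -0.14 and vg to -0.26. Against the 3 driver libraries 10 named genes changed sign: Nep7 (-0.11), CG13731 (-0.32), Lcp1 (-0.93), Lcp2 (-0.54), Lcp3 (-0.85), Lcp4 (-0.39), CG42500 (-0.42), bt (-0.012), TpnC73F (-0.47) and mt:lrRNA (0.30). Calls higher in w1118 were 23.6% of calls after TMM normalisation and 17.6% with unscaled folds. Of 534 values of the 56 named genes under the alternatives, 405 kept direction and call, 117 kept direction but not the call, and 12 changed sign. No paired analysis was possible because each genotype has 1 library.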

Other observations

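In 16 genes whose most abundant entry lay within 0.5 of zero, 20 other entries with at least 50 reads in the higher control were called, 13 higher and 7 lower in w1118. Over all 30950 entries, those without reads included, 481 were called, 121 higher and 360 lower. How many other entries of such genes had as many reads was not counted, so the 20 cannot be set against a share. The entries named here were singled out after their values were seen. In 4E-T, which encodes a partner of the translation factor eIF4E, on chromosome 4, 3 overlapping entries were lower in w1118 while the main entry lay at 0.09. The longest of them, 249 exonic bases between 978632 and 978992 in dm3, had 115 reads in w1118, 307 in sd::Gal4/+, 84 in the library titled FH-cortoCD and 63 in that titled RpL12-Myc (log2 fold change -1.07). In unc79, a gene of a sodium leak channel complex on 3R, an entry of 1977 exonic bases between 15058923 and 15063307 had 64, 26, 27 and 21 reads (1.64) and another of 2574 bases between 15068444 and 15071567 had 51, 28, 31 and 19 (1.21), while the main entry lay at 0.26. In short stop (shot), a cytoskeletal linker gene on 2R, an entry of 821 bases between 9809052 and 9813008 had 60 and 28 reads in w1118 and sd::Gal4/+ (1.44) and 362 and 363 in the libraries with a transgene. Counting was without strand, so reads of overlapping genes on the other strand cannot be told apart from those of these entries.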
